A study of Mus musculus with 8 samples.

Results

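Circadian clock genes and their output factors were examined in the muscle of mice with diet-induced obesity. The set was a list of 10 genes taken by name: Clock for the activating limb, Per1, Per2, Per3, Cry1, Cry2, Nr1d1 and Nr1d2 for the repressing limb, and Dbp and Tef for the output. All 10 were among the 22173 genes of the deposited table, and all 10 passed the filter on low counts that left 12963 genes for testing. The animals belonged to the inbred C57BL/6 strain, were 24 weeks old and had diet-induced obesity. The liraglutide group received 0.2 mg/kg/day of this GLP-1 receptor agonist by subcutaneous injection over 9 weeks, and the group called model received normal saline. Each group had 8 mice, of which 4 per group gave 1 muscle library each; a lean or untreated group was not analysed here, so obesity was shared by both groups. The muscle is not named and the time of day of tissue collection is not given in the sources used here.

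The mammalian clock is a transcriptional feedback loop that runs in nearly every tissue, muscle fibres included. CLOCK and its partner BMAL1 (gene Arntl) bind E-box elements and activate the Per, Cry and Nr1d genes; PER and CRY proteins return to inhibit CLOCK and BMAL1, while the REV-ERB receptors encoded by Nr1d1 and Nr1d2 repress Arntl. The output factors DBP, TEF and HLF are activated through E-boxes as well and bind D-box elements, where NFIL3 acts as repressor. In mouse tissues Arntl and Dbp transcripts peak at opposite times of day, so the relation of the limbs to each other depends on the phase at which a sample was taken.

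Windows around the annotated transcription start show how these elements sit in the members' promoters. Each window ran from 250 bases before to 50 bases after the start and was taken from RefSeq on GRCm38.p6; 9 of the 10 members and Arntl had at least 1 window, and Per2 had none. Both strands were searched for the E-box CACGTG, its variant CACGTT, the D-box TTATGTAA, its symmetric form TTACGTAA, the element TAGGTCA bound by ROR and REV-ERB receptors, and the cAMP response element TGACGTCA. The 5 windows below are shown because they carry the different element types of the loop, or belong to Dbp, the member with the largest difference between groups; they are written 5′ to 3′ on the gene's strand with matched elements in capitals.
Per1, chr11:69098699-69098998, plus strand: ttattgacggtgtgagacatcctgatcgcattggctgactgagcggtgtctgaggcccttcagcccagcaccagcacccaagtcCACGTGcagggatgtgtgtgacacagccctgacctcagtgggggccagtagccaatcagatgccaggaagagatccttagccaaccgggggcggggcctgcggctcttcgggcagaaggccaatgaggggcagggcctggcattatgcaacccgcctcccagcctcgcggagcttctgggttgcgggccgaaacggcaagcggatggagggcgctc
Cry1, chr10:85185005-85185304, minus strand: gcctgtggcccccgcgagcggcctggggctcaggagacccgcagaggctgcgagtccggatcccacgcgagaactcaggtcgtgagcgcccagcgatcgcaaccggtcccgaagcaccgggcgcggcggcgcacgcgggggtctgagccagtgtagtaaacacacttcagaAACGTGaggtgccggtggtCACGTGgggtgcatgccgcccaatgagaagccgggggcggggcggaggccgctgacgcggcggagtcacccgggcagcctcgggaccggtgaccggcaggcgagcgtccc
Per3, chr4:151044616-151044915, minus strand: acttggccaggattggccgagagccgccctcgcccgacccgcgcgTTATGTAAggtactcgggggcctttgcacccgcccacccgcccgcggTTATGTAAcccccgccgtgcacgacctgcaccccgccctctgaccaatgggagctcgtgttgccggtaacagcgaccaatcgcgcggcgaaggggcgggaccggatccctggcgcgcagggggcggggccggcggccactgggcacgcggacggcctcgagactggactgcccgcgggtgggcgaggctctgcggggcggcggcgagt
Arntl, chr7:113207261-113207560, plus strand: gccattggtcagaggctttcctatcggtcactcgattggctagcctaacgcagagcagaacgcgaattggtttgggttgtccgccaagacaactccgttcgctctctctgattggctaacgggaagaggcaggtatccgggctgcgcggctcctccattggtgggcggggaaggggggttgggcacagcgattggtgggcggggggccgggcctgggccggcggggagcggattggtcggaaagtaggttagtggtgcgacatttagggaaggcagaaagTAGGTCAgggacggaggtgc
Dbp, chr7:45704997-45705296, plus strand: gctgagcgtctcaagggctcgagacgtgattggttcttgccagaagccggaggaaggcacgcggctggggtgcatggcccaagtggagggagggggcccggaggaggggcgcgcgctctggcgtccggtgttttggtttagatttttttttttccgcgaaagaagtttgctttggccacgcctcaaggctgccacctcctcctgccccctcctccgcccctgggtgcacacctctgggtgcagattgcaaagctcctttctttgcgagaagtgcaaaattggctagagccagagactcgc

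An E-box lay 166 bases upstream of the first Per1 start and 60 bases upstream of the Cry1 start. It was also present upstream of both Tef starts, at 127 and 138 bases, so that 3 of the 9 members with a window held CACGTG, against 8.09% of the 27025 genes with a window. The variant CACGTT was found on the reverse strand in Cry1, Cry2 and Nr1d1, against 5.44% of genes. Per3 held 2 copies of the D-box TTATGTAA, at 205 and 158 bases upstream, a motif held by 1.11% of genes. The Arntl window held TAGGTCA, present in 2.97% of genes, downstream of its start. The symmetric D-box (0.126% of genes) and the cAMP response element (2.03% of genes) were matched in none of these windows. The Dbp window held no match, and neither did those of Clock and Nr1d2. A match describes letters in the window and not occupancy.

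Library totals ran from 17133476 to 18244579 counts in the liraglutide group and from 15033631 to 16622716 in the model group, so the treated libraries were all deeper. The clock genes were covered by 176 counts (Cry1 in model 2) to 5903 counts (Tef in liraglutide 2) per library. The 10 myofibre markers summed to 204500 to 220632 CPM (counts scaled to a common library total) with liraglutide and to 199813 to 202507 CPM in the model group, with 0 markers at 0. The 9 adipocyte markers summed to 915 to 1345 CPM against 1514 to 2350 CPM, and the 7 endothelial markers to 396 to 442 CPM against 458 to 511 CPM. On this scaling by library totals, without TMM factors, none of the myofibre, adipocyte and endothelial sums overlapped between groups. In these CPM, 8 of the 9 adipocyte and 6 of the 7 endothelial markers had a lower mean with liraglutide, and 0 were at 0. The edgeR test below, with TMM scaling, called 7 of the 9 adipocyte markers, all lower, and 5 of the 10 myofibre markers, all higher. It called 0 of the 7 endothelial markers, whose median log2 fold change was -0.12. Adipocytes and vessels also run the clock, and the part of these cell types in the results was not tested. In bulk muscle, fewer cells of a type and less RNA per cell cannot be told apart. Of 8 epididymis markers, 7 summed to 0.226 to 1.43 CPM in the liraglutide libraries and to 23.1 to 49.0 CPM in the model libraries. The other marker, Crisp1, stood at 144 CPM in liraglutide 2, at 0.117 to 1.14 CPM in the other liraglutide libraries and at 3.55 to 9.51 CPM in the model libraries; it was named after its values were seen. Liraglutide 2 and model 3 had been set apart by transcripts of other tissues in an earlier analysis, and results that rest on them are also given without them. In model 3 the 7 epididymis markers summed to 43.1 CPM and Crisp1 stood at 6.61 CPM. Both values lay within the range of the other model libraries.

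No member of the clock and output set passed the test of treatment. In edgeR's quasi-likelihood test of liraglutide against model, 0 of the 10 members had a Benjamini-Hochberg adjusted p under 0.05, where 10.3% of all tested genes did (5.45% higher and 4.83% lower with liraglutide). DESeq2 also called 0, where it called 11.8% of the genes it gave an adjusted p. At an unadjusted p under 0.05 there were 3 members, Dbp and Per2 toward higher and Clock toward lower values, against 26.5% of all tested genes (13.1% toward higher and 13.4% toward lower values), so the members' share was near the background. The median log2 fold change of the members was 0.11, and that of all tested genes was -0.01. Without liraglutide 2 and model 3, Dbp was called (log2 fold change 1.08, edgeR adjusted p = 0.0251) and the other 9 members were not. These omitted libraries held the highest Dbp of their groups, at 28.9 and 12.0 FPKM.

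**Figure D1:**
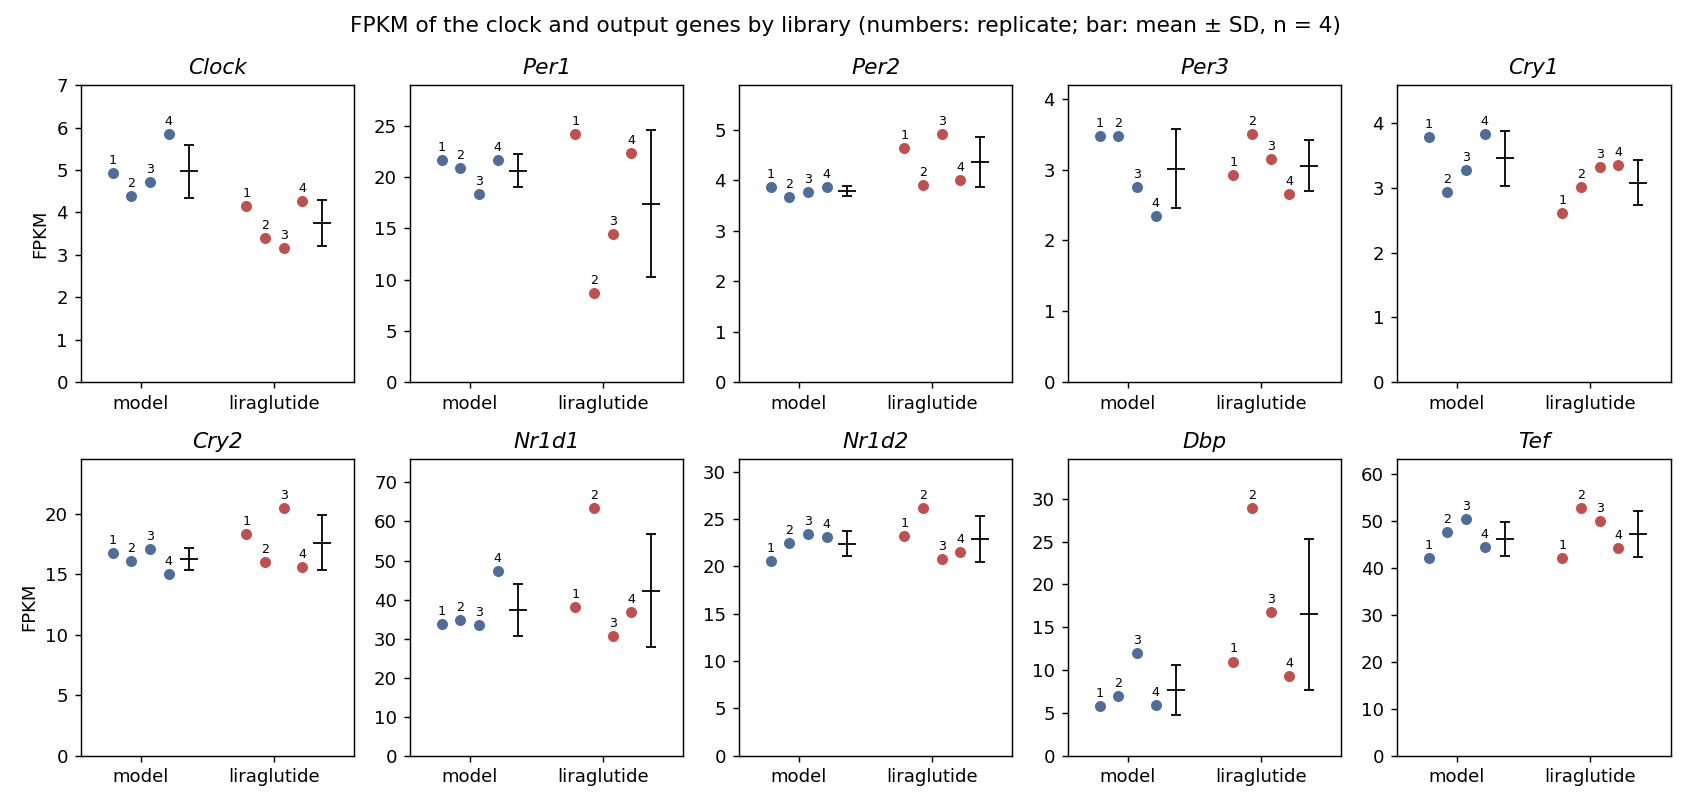
Level of each of the 10 clock and output genes (y axis, FPKM, from 0) in the 4 model and 4 liraglutide libraries; numbers beside points are replicate numbers and the bar beside each group is its mean ± SD. Clock and Per2 show groups that do not overlap in FPKM, while Dbp spreads from 9.32 to 28.9 FPKM in the liraglutide group.

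Levels between genes were compared as FPKM, which scales fragments by gene length and library total. Tef was the most abundant member in both groups, at 47.3 ± 4.94 FPKM with liraglutide and 46.3 ± 3.68 FPKM in the model group (SD, n = 4 each). Nr1d1 followed, and its range overlapped that of Tef in each group, so the order of the top pair was not resolved. Nr1d2 came next in both groups, below Nr1d1 without overlap. In the model group Per1 (20.6 ± 1.61 FPKM), Cry2 (16.3 ± 0.907 FPKM) and Dbp (7.65 ± 2.93 FPKM) came next, with Per1 above Cry2 and Cry2 above Dbp without overlap. In the liraglutide group the ranges of Cry2, Per1 and Dbp ran into each other in order of their means. Per2, Clock, Cry1 and Per3 were the least abundant members, all with means of 3.01 to 4.96 FPKM.

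Clock, the activating partner of BMAL1, had lower FPKM in every liraglutide library than in any model library. Clock (Entrez gene 12753) measured 4.16, 3.40, 3.16 and 4.26 FPKM in liraglutide 1 to 4 and 4.92, 4.38, 4.71 and 5.84 FPKM in model 1 to 4. The groups did not overlap in FPKM, as they did not for 20.3% of tested genes, with 15.4% of tested genes on the lower side. In log2 CPM with TMM scaling, the scale of the test, the groups overlapped, with liraglutide 4 at 5.44 and model 2 at 5.42. Its log2 fold change was -0.33 ± 0.11 (SE), or 0.795-fold with a 95% interval of 0.669 to 0.944, and it missed the threshold (edgeR adjusted p = 0.0907, unadjusted p = 0.0141). Clock is a long gene model of 9936 bases, and the 1169 tested genes of 0.8 to 1.25 times that length had a median log2 fold change of -0.10. With an offset for gene length the value of Clock was -0.21 (edgeR adjusted p = 0.226), whereas library totals in place of TMM scaling gave -0.41 and a call (edgeR adjusted p = 0.0468).

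Of the other genes of the activating limb, Arntl and Npas2 were lowest in liraglutide 2 and 3, the libraries with the lowest Clock, whereas Rora was not. Arntl, which encodes BMAL1, measured 1.54, 0.967, 0.898 and 1.58 FPKM in liraglutide 1 to 4 and 1.75, 1.82, 1.24 and 2.29 FPKM in model 1 to 4. Liraglutide 2 and 3 were the lowest of all libraries, followed by model 3, and the groups overlapped. Arntl did not pass (log2 fold change -0.44 ± 0.22 SE, edgeR adjusted p = 0.236). Npas2, a paralogue of Clock, ranged from 0.199 to 0.47 FPKM against 0.413 to 0.593 FPKM, on 15 to 40 counts per library, and did not pass either. The nuclear receptor gene Rora, an activator of Arntl, stood at 8.91 ± 1.4 against 10.7 ± 0.66 FPKM (SD, n = 4; edgeR adjusted p = 0.306). Rora was called lower without liraglutide 3 (log2 fold change -0.31, edgeR adjusted p = 0.0243). Rorb had 3 to 8 counts per library and was not tested. The 4 genes of this limb that were tested and are reported here had a median log2 fold change of -0.34, and all 4 values were negative. Arntl and Rora are also long gene models, of 19267 and 14941 bases. With the gene length offset their log2 fold changes were -0.29 and -0.034 (edgeR adjusted p = 0.399 and 0.892).

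The period genes, whose proteins carry the delayed repression of the loop, differed from each other in direction. Per2 (Entrez gene 18627) measured 4.64, 3.91, 4.91 and 4.0 FPKM in liraglutide 1 to 4 and 3.87, 3.67, 3.77 and 3.88 FPKM in model 1 to 4. Every liraglutide library was above every model library, a pattern that 4.91% of tested genes showed in this direction, but liraglutide 2 exceeded the highest model library only narrowly. The log2 fold change was 0.28 ± 0.087 (SE), or 1.21-fold with a 95% interval of 1.06 to 1.39 (edgeR adjusted p = 0.071). Per2 was called when liraglutide 2 was left out (log2 fold change 0.34, edgeR adjusted p = 0.0379) and with the gene length offset (log2 fold change 0.38, edgeR adjusted p = 0.0325).

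Per1, the period gene that is also induced quickly by hormones and by cAMP signalling, separated the liraglutide libraries from each other rather than the groups. Per1 (Entrez gene 18626) measured 24.2, 8.71, 14.4 and 22.3 FPKM in liraglutide 1 to 4 and 21.7, 20.9, 18.3 and 21.7 FPKM in model 1 to 4. Liraglutide 1 and 4 lay above all model libraries, and liraglutide 2 and 3 lay below them. The SD of log2 CPM was 0.68 within the liraglutide group and 0.11 within the model group, beside medians of 0.13 and 0.11 over the 10174 tested genes with a mean of at least 1 FPKM. The fitted fold was 0.889 with a 95% interval of 0.596 to 1.33 (edgeR adjusted p = 0.731), and the log2 fold change went from -0.17 to 0.062 without liraglutide 2. Per3 ranged from 2.66 to 3.498 FPKM with liraglutide and from 2.34 to 3.47 FPKM in the model group, with a fold of 1.07 and an interval of 0.87 to 1.32. Per3 stood highest in liraglutide 2, the library where Per1 was lowest. The ratio of Per1 to Per2 in FPKM was 5.21, 2.23, 2.93 and 5.58 in liraglutide 1 to 4 and 5.61, 5.68, 4.86 and 5.60 in model 1 to 4.

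The cryptochromes, the repressor partners of the PER proteins, overlapped between the groups. Cry1 (Entrez gene 12952), whose window carries an E-box with an upstream variant, ranged from 2.62 to 3.36 FPKM with liraglutide and from 2.94 to 3.83 FPKM in the model group. The fold was 0.938 with a 95% interval of 0.786 to 1.12 (edgeR adjusted p = 0.666). Cry2 (Entrez gene 12953), which shares 295 exon bases with an antisense transcript, measured 18.4, 16.1, 20.5 and 15.6 FPKM in liraglutide 1 to 4 and 16.8, 16.1, 17.1 and 15.1 FPKM in model 1 to 4. Its highest library was liraglutide 3 and the groups overlapped, with a fold of 1.14 and an interval of 0.987 to 1.32 (edgeR adjusted p = 0.229).

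The REV-ERB genes, which repress Arntl, were highest in liraglutide 2. Nr1d1 (Entrez gene 217166) measured 38.1, 63.4, 30.7 and 36.8 FPKM in liraglutide 1 to 4 and 33.8, 34.7, 33.5 and 47.3 FPKM in model 1 to 4. Liraglutide 2 was the highest library and model 4 the second highest. The fold was 1.19 with a 95% interval of 0.871 to 1.63 (edgeR adjusted p = 0.468), and the log2 fold change went from 0.25 to 0.0048 without liraglutide 2. Nr1d1 shares 263 exon bases with Thra, a thyroid hormone receptor gene on the opposite strand, in the GENCODE M21 annotation; whether counting used strand is not given in the sources used here, so its level is uncertain to that extent. Thra itself stood at 19.9 ± 1.41 against 19.1 ± 0.942 FPKM (SD, n = 4). Nr1d2, the paralogue, ranged from 20.8 to 26.2 FPKM against 20.6 to 23.4 FPKM, again highest in liraglutide 2, with a fold of 1.08 and an interval of 0.962 to 1.20.

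Dbp, the albumin D-box binding factor whose transcript cycles strongly in many mouse tissues, showed the largest difference between the groups' means. Dbp (Entrez gene 13170) measured 10.99, 28.9, 16.7 and 9.32 FPKM in liraglutide 1 to 4 and 5.77, 6.92, 12.0 and 5.92 FPKM in model 1 to 4. Model 3 lay above liraglutide 1 and 4, so the groups overlapped, while the other 3 model libraries lay below every liraglutide library. Group means were 16.5 ± 8.86 and 7.65 ± 2.93 FPKM (SD, n = 4). The log2 fold change was 1.18 ± 0.36 (SE), or 2.27-fold with a 95% interval of 1.30 to 3.96, and it missed the threshold (edgeR adjusted p = 0.0679, DESeq2 adjusted p = 0.0591). Dbp was called without liraglutide 4 (edgeR adjusted p = 0.0414) and without model 3 (edgeR adjusted p = 0.0426), and its log2 fold change was 0.79 without liraglutide 2. Its spread within groups, an SD of 0.62 on the log2 scale, exceeded that of 98.2% of the tested genes with a mean of at least 1 FPKM. Dbp shares 539 exon bases with Sphk2, a sphingosine kinase gene on the opposite strand, which stood at 4.78 ± 0.207 against 4.62 ± 0.101 FPKM (SD, n = 4), with a range of 4.63 to 5.08 FPKM in the liraglutide libraries where Dbp ran from 9.32 to 28.9 FPKM.

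The other output factors of the same bZIP family had smaller differences between the groups' means. Tef (Entrez gene 21685) measured 42.1, 52.8, 50.04 and 44.4 FPKM in liraglutide 1 to 4 and 42.2, 47.8, 50.6 and 44.5 FPKM in model 1 to 4. Liraglutide 2, model 3 and liraglutide 3 were its 3 highest libraries, as they were for Dbp, and the fold between groups was 1.08 with a 95% interval of 0.948 to 1.23. Tef overlaps an antisense transcript over 193 exon bases. Hlf ranged from 1.46 to 2.33 FPKM against 1.87 to 2.16 FPKM (log2 fold change -0.09). Nfil3, the repressor at D-boxes, measured 21.9, 4.97, 13.3 and 17.9 FPKM in liraglutide 1 to 4 and 19.4, 19.2, 15.03 and 22.5 FPKM in model 1 to 4. It was lowest in the 3 libraries where Dbp was highest, and it did not pass (edgeR adjusted p = 0.626).

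**Figure D2:**
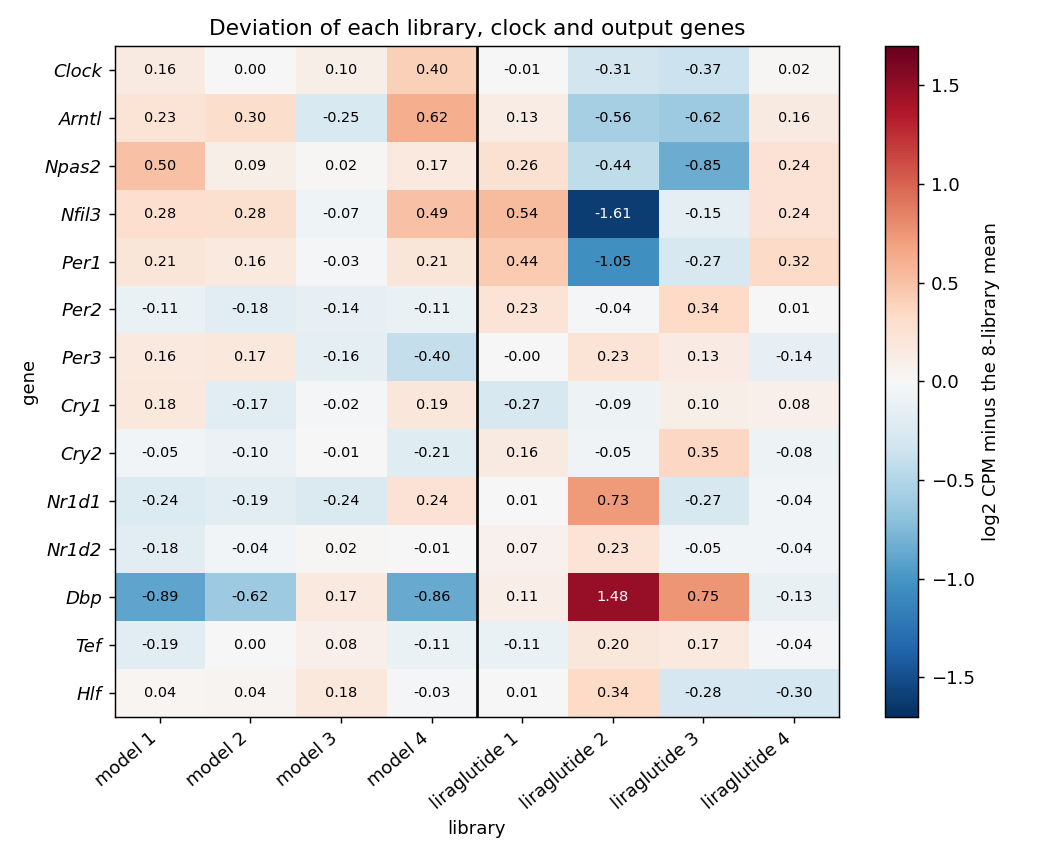
Log2 CPM of 14 clock and output genes (rows) in each of the 8 libraries (columns), as the difference from the gene's mean over the 8 libraries; red is higher and blue lower. Liraglutide 2 and 3 combine low Clock, Arntl and Npas2 with high Dbp, and model 3 has the lowest Arntl and the highest Dbp of its group.

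As a check of sampling time the limbs were set against each other within each library. Averaged over Clock, Arntl and Npas2, log2 CPM deviated from the mean over 8 libraries by 0.12, -0.44, -0.61 and 0.14 in liraglutide 1 to 4 and by 0.30, 0.13, -0.04 and 0.40 in model 1 to 4. The mean over Dbp, Tef and Hlf deviated by 0.00283, 0.67, 0.21 and -0.16 in liraglutide 1 to 4 and by -0.35, -0.19, 0.14 and -0.33 in model 1 to 4. In both groups the library or libraries with the lowest activator average were thus those with the highest output average. Rora is not part of this activator average and did not follow it. It was highest of its group in liraglutide 3 and in model 3, with deviations of 0.25 and 0.19. The output genes did not all follow their average. In liraglutide 3 the deviation was 0.75 for Dbp, 0.17 for Tef and -0.28 for Hlf. The ratio of Dbp to Arntl in FPKM was 7.14, 29.9, 18.7 and 5.90 in liraglutide 1 to 4 and 3.30, 3.79, 9.68 and 2.59 in model 1 to 4. It spanned 5.90 to 29.9 within the liraglutide group and 2.59 to 9.68 within the model group.

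The Per genes differed from each other along this axis. Per1 was lowest of its group in liraglutide 2 and 3 and in model 3, the libraries with a high output average. Per2 was highest in liraglutide 3 and Per3 in liraglutide 2. The mean over the 3 Per genes deviated by 0.22, -0.28, 0.07 and 0.06 in liraglutide 1 to 4 and by 0.09, 0.05, -0.11 and -0.10 in model 1 to 4. The mean over the 2 Cry genes stayed within -0.14 and 0.22 in all libraries. The mean over the 2 Nr1d genes deviated by 0.04, 0.48, -0.16 and -0.04 in liraglutide 1 to 4. In model 1 to 4 it deviated by -0.21, -0.12, -0.11 and 0.12. It did not follow the output average, being highest in liraglutide 2 but lowest of its group in liraglutide 3. Between groups, the liraglutide minus model difference of these averages was -0.39 for the activator genes, 0.03 for the Per genes, 0.05 for the Cry genes, 0.16 for the Nr1d genes and 0.36 for Dbp, Tef and Hlf. The liraglutide and model ranges overlapped in each of these limbs. The difference of 0.36 came mostly from Dbp, with fitted log2 fold changes of 1.18 for Dbp, 0.11 for Tef and -0.09 for Hlf. With Nfil3 included, the 4 output factors had a median log2 fold change of 0.0081. The medians were -0.34 for the activating limb and 0.11 for the repressing limb. No time of collection could be set beside these values, and its part in them was not tested.

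**Figure D3:**
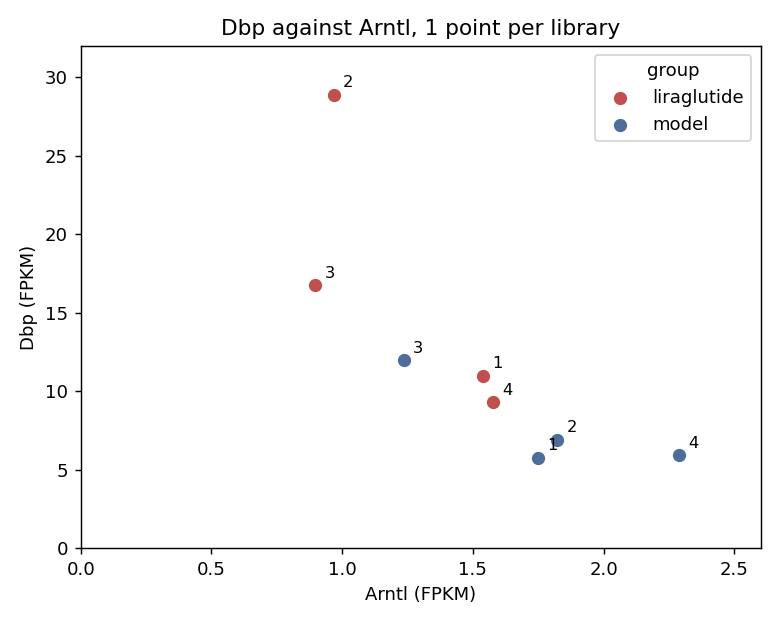
FPKM of Dbp (y axis) against FPKM of Arntl (x axis), 1 point per library, labelled with the replicate number and coloured by group. Liraglutide 2 and 3 lie at the upper left, with Dbp at 28.9 and 16.7 FPKM and Arntl under 1 FPKM, and model 3 lies nearest to them among the model libraries.

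The wider clock list, of kinases, ubiquitin ligases and further transcription factors of the loop, had few genes near the threshold. It includes Arntl, Npas2, Rora, Hlf and Nfil3, already given above. Of 20 genes, 18 were tested, and edgeR called 0, while DESeq2 called 1. In edgeR 3 had an unadjusted p under 0.05, against 26.5% of all tested genes. The median log2 fold change of the list was -0.02. The gene called by DESeq2 was Gsk3b, a kinase that phosphorylates several clock proteins, at 11.1 ± 0.712 against 13.6 ± 0.69 FPKM (SD, n = 4). Its edgeR log2 fold change was -0.22 (edgeR adjusted p = 0.0629, DESeq2 adjusted p = 0.0478). Its groups did not overlap in FPKM but did in TMM-scaled log2 CPM, with liraglutide 3 at 6.76 and model 1 at 6.72. With the gene length offset the log2 fold change of Gsk3b was -0.10 (edgeR adjusted p = 0.441). Csnk1e, the casein kinase that marks PER proteins for degradation, stood at 6.77 ± 0.266 against 6.47 ± 0.2 FPKM (edgeR adjusted p = 0.0914), and its paralogue Csnk1d at 18.8 ± 0.601 against 18.7 ± 0.851 FPKM. The E-box repressors Bhlhe40 and Bhlhe41 had log2 fold changes of 0.37 and 0.33 (edgeR adjusted p = 0.184 and 0.2). Leaving out liraglutide 3 gave 3 calls in this list, among them Bhlhe41 (0.47) and Gsk3b (-0.27), with Rora as the other. Ciart, a further repressor of CLOCK and BMAL1, ranged from 2.57 to 4.44 FPKM against 2.38 to 5.51 FPKM.

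**Figure D4:**
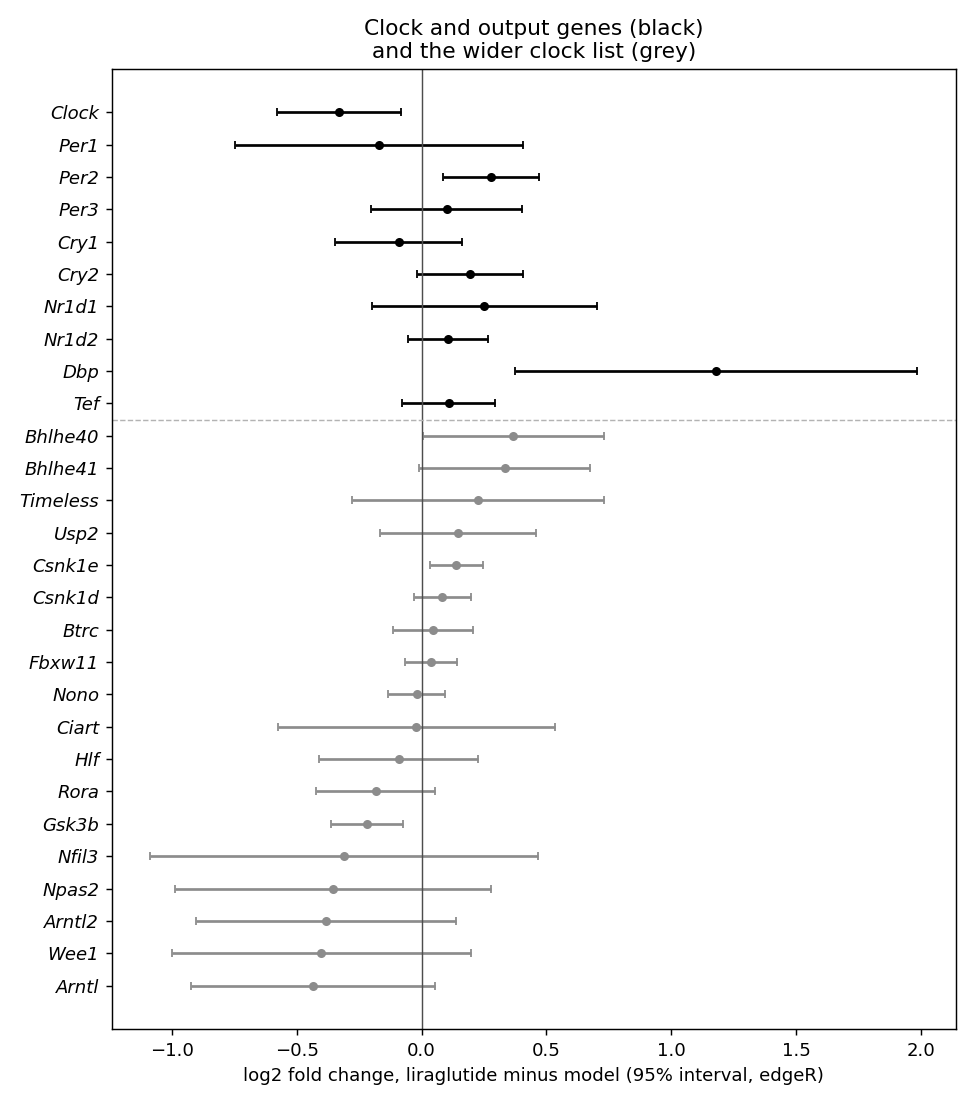
Log2 fold change, liraglutide minus model, with 95% intervals from edgeR for the 10 clock and output genes (black) and the tested genes of the wider clock list that are not members (grey). Dbp, at 1.18, has the largest value; the intervals of Clock, Per2 and Dbp exclude 0 among the members, and none passed the adjusted threshold.

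Among genes outside the loop that are under clock control in muscle, a few passed the test. Of 16 clock-controlled muscle genes, 2 rose and 2 fell, or 4 called, against the background of 10.3%. Myod1, the myogenic factor and a direct CLOCK and BMAL1 target, rose 1.69-fold (edgeR adjusted p = 0.0249), with 6.54 ± 1.74 FPKM against 4.07 ± 0.249 FPKM in the model group (SD, n = 4) and liraglutide 2 and 3 highest at 8.43 and 7.59 FPKM. Its call ended without liraglutide 3 (edgeR adjusted p = 0.0645), without any 1 model library (up to 0.0681) and without liraglutide 2 and model 3 (0.1). Lpl, lipoprotein lipase, fell by 0.52 on the log2 scale (edgeR adjusted p = 0.0111). Lpl is abundant in adipocytes as well, whose markers were lower in these libraries. Fbxo32, the atrophy ubiquitin ligase atrogin-1, fell by 0.49 (edgeR adjusted p = 0.0303), a call that ended without liraglutide 1, 2 or 3 and without model 1, 2 or 4 (up to 0.0816). The sarcomere gene Tcap, named after its values were seen, rose 1.30-fold (edgeR adjusted p = 0.046), a call that ended on leaving out any 1 library but liraglutide 1 (up to 0.0911). The list median was -0.03 (0.054 without liraglutide 2 and 0.021 without model 3), and single omissions left 1 to 3 calls: 1 without liraglutide 3, model 1, model 2 or model 4, and 2 without liraglutide 2 or model 3.

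Glucocorticoid-responsive genes, a list that shares Per1, did not pass the test. Of 12 tested, edgeR called 0 (1 at an unadjusted p under 0.05, Klf9), and the median log2 fold change was -0.17, or 0.061 without liraglutide 2. Ddit4, a stress- and hormone-induced inhibitor of mTOR signalling, measured 151, 9.73, 63.3 and 152 FPKM in liraglutide 1 to 4 and 164, 151, 131 and 153 FPKM in model 1 to 4. Errfi1 measured 35.5, 11.9, 22.3 and 34.0 FPKM in liraglutide 1 to 4 and ranged from 29.9 to 40.2 FPKM in the model group. Liraglutide 2 and 3 were low for both genes, as for Per1 and Nfil3. The list was not uniform in this. Klf9 measured 55.4, 51.8, 60.9 and 59.2 FPKM in liraglutide 1 to 4, the highest of the group being liraglutide 3. Fkbp5 and Zbtb16, named after their values were seen, were highest of all libraries in liraglutide 3, at 40.1 and 32.5 FPKM.

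Immediate early and temperature-responsive genes had mostly positive log2 fold changes and few calls. Of 16 immediate early and cAMP-responsive genes, Egr1 alone was called (4.50-fold; edgeR adjusted p = 0.0294), with a list median of 0.41 and Ier3 and Jun just short of the threshold (edgeR adjusted p = 0.0531 and 0.0605). Egr1 measured 76.8, 33.8, 11.04 and 57.8 FPKM in liraglutide 1 to 4, again lower in liraglutide 2 and 3 than in 1 and 4, against 7.02, 5.998, 15.2 and 13.5 FPKM in model 1 to 4. Its call ended without liraglutide 1 or 4 or without model 1, 2 or 4 (edgeR adjusted p up to 0.0897). Single omissions gave this list 0 calls in edgeR without liraglutide 1, model 1 or model 4 (3 to 4 genes at an unadjusted p under 0.05), 2 without liraglutide 3 and 3 without liraglutide 2. All 9 temperature-responsive genes had positive log2 fold changes, as did 6193 of all 12963 tested genes. The edgeR test called 0 of the 9 (4 at an unadjusted p under 0.05, against 26.5% of all tested genes). The median of the 9 log2 fold changes was 0.31. The values were not uniform. They ran from 0.022 for Rbm3 and 0.054 for Cirbp, both named after their values were seen, to 1.85 for Hspa1b. The heat shock genes Hspa1a, Hspa1b and Hspb1 had log2 fold changes of 1.69, 1.85 and 0.75 (edgeR adjusted p = 0.0704, 0.0717 and 0.0725). Hspb1 measured 160 FPKM in liraglutide 2 and 360 to 386 FPKM in the other liraglutide libraries. Without liraglutide 2 the list had 5 called genes, without model 4 it had 1, and without liraglutide 2 and model 3 it had 3.

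Genes whose pattern was most like that of Dbp were found by correlating log2 CPM over the 8 libraries after subtracting each group's mean. The highest Pearson r among the tested genes belonged to Gucy1a1 (0.982), Eif1ax (0.98), Efna1 (0.979), Adh1 (0.978), Mfsd5 (0.97) and Kif1c (0.97). The lowest belonged to Ikzf2 (-0.996), Ttyh1 (-0.99), Thbs1 (-0.984), Iqgap1 (-0.982), Tmcc3 (-0.982) and Inhbb (-0.982). These values describe 8 libraries that share depth and composition, and they are selected extremes. Without liraglutide 2 the r of Gucy1a1 was 0.964 and that of Ikzf2 -0.994. Among clock genes, Tef ranked 88th from the highest (r = 0.884), while Per1 (r = -0.888), Arntl (-0.877) and Nfil3 (-0.873) ranked 260th, 306th and 327th from the lowest; without liraglutide 2 the r of Tef, Per1, Arntl and Nfil3 was 0.873, -0.784, -0.915 and -0.819. Clock and Npas2 had r of -0.687 and -0.698. The r of some other clock genes depended on liraglutide 2. Without it, r went from 0.384 to -0.563 for Nr1d1, from 0.679 to 0.312 for Nr1d2 and from 0.709 to 0.293 for Hlf. For Per2 r went from -0.188 to 0.475, and for Bhlhe40 from -0.328 to -0.955. Adh1, an alcohol dehydrogenase, measured 11.2, 20.7, 15.5 and 10.5 FPKM in liraglutide 1 to 4 and 14.6, 19.8, 25.7 and 16.3 FPKM in model 1 to 4, so it tracked Dbp within groups although its group means ran the other way. Kif1c, a kinesin motor gene, was the single gene of these 12 that passed the test of treatment (log2 fold change 0.17, edgeR adjusted p = 0.0218); its call ended with library totals and without model 1, 2 or 4 (up to 0.0683) and without liraglutide 2 and model 3 (0.065).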

How the data were processed

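RNA was sequenced from skeletal muscle of 4 liraglutide and 4 model mice. Per the labels' protocols, TRIzol was used for extraction and a stranded mRNA kit for the libraries. HTSeq, HISAT2, DESeq, Trimmomatic and Cufflinks appear in the submitters' processing notes, with the human build GRCh38, although the genes are mouse genes; the build used is not known here, and promoter coordinates refer to RefSeq only. Per the file headers, the deposited table holds raw counts and FPKM per gene and library. The deposited FPKM equalled the count over library total and a whole gene length for 17484 of 17484 genes with a count (within 0.01 base). The labels give every library a separate animal code, and 1 misspelt column was assigned by that code.

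The members and lists were chosen with earlier results of these data known. Counts were tested in edgeR 4.0.16 (R 4.3.3) by the quasi-likelihood test with TMM scaling and filterByExpr (minimum count 10); p values were adjusted by Benjamini-Hochberg over 12963 genes, with 0.05 as the threshold for a call. Log2 CPM used a prior count of 2. Intervals are 95% intervals of the fit. The procedure was tested on simulated data. Alternatives were DESeq2 1.42.0, limma 3.58.1 on log2(FPKM + 1) or log2(FPKM + 0.1), RLE scaling, library totals, no filter, a minimum count of 50, a loess offset on gene length (span 0.5), a replicate block, omission of each library, and omission of liraglutide 2 with model 3. Genes were named by rule: all members, tested genes of the wider loop, the 3 genes with the smallest p of each other list, genes overlapping a member, and the 6 genes most and least like Dbp. Overlaps were read from GENCODE M21. Some genes of the wider loop are not reported here. Pairs of libraries in a group differed by more than sampling noise.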

Additional observations from a re-analysis of the deposited data

Results flagged for a closer look

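Of 110 groups of 4 libraries (55 genes), 12 had a library standing apart from the other 3 by a gap of over 82.9% of the group's range, which chance gives in about 1 in 20 groups. Among the members this was Nr1d1 in model 4, at 47.3 FPKM against 33.5 to 34.7 in the other model libraries. In liraglutide 3, Rora stood at 10.99 FPKM (others 7.99 to 8.39), Gsk3b at 12.2 FPKM (others 10.6 to 10.8) and Thra at 17.8 FPKM (others 20.4 to 20.9). In model 1, Bhlhe41 stood at 7.64 FPKM (others 5.50 to 5.75) and Csnk1e at 6.77 FPKM (others 6.34 to 6.40). In model 4, Hspa1a and Hspa1b stood at 26.2 and 24.5 FPKM (others 8.58 to 11.3 and 6.84 to 9.27). Hspb1 stood at 160.4 FPKM in liraglutide 2 (others 360 to 386). In model 3, the library with the highest Dbp of its group, Gucy1a1, Eif1ax and Efna1 stood at 3.08, 26.6 and 4.32 FPKM (others 1.74 to 1.90, 25.3 to 25.5 and 2.61 to 2.89); these 3 were named for their likeness to Dbp, so their flags are not independent of it.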

How the results depend on the processing

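The count of 1333 called genes (53.0% higher) was 697 without liraglutide 2 and model 3 and 615 to 1231 on leaving out single libraries (862 without liraglutide 3, 615, 713 and 731 without model 1, 2 and 4). The share higher was 21.4% with library totals, 25.5% and 25.8% with limma at pseudocounts of 1 and 0.1, and 68.0% with the length offset. Called members numbered 0 in edgeR (3 at an unadjusted p under 0.05), 1 with library totals (Clock), 1 with the length offset (Per2), 1 without liraglutide 2 and model 3 (Dbp), and 0 to 1 on single omissions. Same-numbered libraries deviated together with r of 0.186, -0.028, 0.207 and 0.125 for numbers 1 to 4, so the numbers were not taken as pairs. The replicate block gave 1035 called genes and 2 called members (Clock, edgeR adjusted p = 0.0267, and Dbp, 0.0329), 1 wider clock gene (Bhlhe40), 2 immediate early and 3 temperature-responsive genes; the cause of these shifts was not tested. Adjusted p over all 18 alternatives ran from 0.0267 to 0.226 for Clock, from 0.0325 to 0.194 for Per2 and from 0.0251 to 0.163 for Dbp, with no change of sign.

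The wider clock list had 1 call with library totals, DESeq2, the stricter filter or either limma fit (Gsk3b), 1 with the length offset (Csnk1e) and 0 to 3 on single omissions. Clock-controlled muscle genes had 2 calls with the length offset or without liraglutide 2 and model 3, and 1 to 3 on single omissions; their median was 0.079 with the length offset. Glucocorticoid-responsive genes had 1 call (Klf9) with library totals or either limma fit. Immediate early genes had 3 calls with DESeq2 or without liraglutide 2 and model 3, 2 with the stricter filter or the length offset, 0 in limma, and 0 to 3 on single omissions. Temperature-responsive genes had 3 calls without liraglutide 2 and model 3, and 0 to 5 on single omissions. The median of the repressing limb (0.11) was 0.031 with library totals, 0.00418 without liraglutide 2 and model 3, and 0.051 to 0.18 on single omissions.

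Signs changed for uncalled genes near 0. Without liraglutide 2 and model 3 the log2 fold change was 0.00418 for Per1, -0.000711 for Per3, -0.0496 for Nr1d1, 0.00243 for Ciart and 0.00831 for Nono. Single omissions gave -0.37 to 0.062 for Per1, -0.00502 to 0.18 for Per3, -0.19 to 0.21 for Ciart, -0.0499 to 0.00824 for Nono, -0.51 to 0.00553 for Gucy1a1 and -0.18 to 0.34 for Thbs1. The length offset gave 0.00689 for Hlf. Library totals gave -0.031 for Btrc, -0.039 for Fbxw11 and -0.013 for Thbs1; limma at pseudocounts of 1 and 0.1 gave -0.023 and -0.033 for Btrc, -0.0363 and -0.0383 for Fbxw11, -0.082 and -0.089 for Thbs1, and -0.000517 and -0.00659 for Camta1. The block gave -0.0012 for Thbs1. The causes were not tested. With 4 libraries a group, the 95% intervals of the members allow differences of the sizes printed beside them.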
